A study of Mus musculus with 2 samples.

Results

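The endosomal sorting genes described here are the mouse genes whose symbol begins with Chmp or Vps, together with Tsg101, Snf8, Hgs, Stam, Stam2, Pdcd6ip and Mvb12a. They were chosen by symbol, among probe sets annotated to exactly 1 gene, and number 52 of 17874 genes measured. The cells were colony-forming unit erythroid (CFU-E) cells, progenitors that depend on erythropoietin, from fetal livers of EpoR-/- embryos at gestational day 13.5. They were enriched by removing cells with surface markers of other lineages from pools of 40 to 50 livers. Both groups had the same genotype and the same 1 h without growth factors. The 0 h group (1 array) was lysed straight afterwards, and the 3 h group (1 array) was lysed after 3 h in Panserin medium. The treatment protocol states that no growth factors were supplied during those 3 h, while the treatment tag of the 3 h sample reads "supplemental growth factors", so the groups are called by their times. The genotype tags read "Epo KO", whereas the protocol and the title of the series give the receptor as the missing gene. BALB/c is given for the embryos in the protocol but tagged on the 0 h sample alone, and no wild-type sample was analysed here. Since each group is 1 array, no difference has an error, a test or a p-value. The labels do not say whether the arrays share a pool of livers. Precision is limited by having so few arrays, and the differences are those between these arrays.

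The ESCRT machinery, named for endosomal sorting complexes required for transport, sorts ubiquitinated membrane proteins into vesicles that bud into the endosome, so that they reach the lysosome. ESCRT-0 gathers the ubiquitinated cargo, ESCRT-I and ESCRT-II pass it on and shape the membrane, and ESCRT-III, built of CHMP proteins, forms filaments that cut the membrane neck before the ATPase VPS4 takes them apart. The same filaments also act in the last step of cell division, in resealing the nuclear envelope and in membrane repair. Most VPS names come from yeast mutants in vacuolar protein sorting, and outside ESCRT they mark retromer, which recycles receptors, the tethers CORVET and HOPS, the Golgi tether GARP, and VPS13 lipid transfer proteins. Maturing red cells use this system to shed surface proteins such as the transferrin receptor.

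All 10 CFU-E and erythroid genes examined were at or above the expression floor. Among them were Klf1 (12.03 at 0 h and 12.31 at 3 h) and Nfe2 (8.96 and 10.07). Kit, the stem cell factor receptor, was another (9.01 and 9.03). Epor, which the protocol and the series title give as the missing gene, was also among the 10 (7.08 and 6.89). What this Epor signal comes from was not tested. Here and below, levels are log2 values and a difference is the 3 h value minus the 0 h value. The floor is a mean over both arrays of 5.69, the median of all gene means. A gene can reach it through 1 array alone: of the 8937 genes at or above it, 193 were below it on the 0 h array and 135 on the 3 h array. Among those 8937 genes 51.2% were higher at 3 h, and 6.02% were at least 1.5-fold higher. Of the 10 erythroid genes 8 were higher, and 4 (40%) were at least 1.5-fold higher. Their signal, summed on the linear scale, went from 11673 to 14684. Genes of other cell types were also present. All 13 hepatocyte markers measured reached the floor and 11 of them were lower at 3 h, with a signal, summed on the linear scale, of 90875 at 0 h and 86489 at 3 h. Afp was at 14.60 and 14.53, and Krt8 differed most (0.95). Of 10 granulocyte markers 8 reached the floor, and all 8 were higher at 3 h, though Camp and Ngp, being below it at 0 h, passed only through the 3 h array. Among the others were Mpo (11.70 and 12.16) and S100a9 (9.72 and 11.67). The summed signal of the 10 went from 6459 to 12450. Of 11 macrophage markers, 5 reached the floor and 4 of these were higher, with summed signals of 1690 and 2605. Lyz2 was at 7.98 and 9.80, while C1qa, C1qb and C1qc were below it. Of 6 megakaryocyte markers 3 reached the floor, Gp9 and Pf4 through the 3 h array alone, with Itga2b at 7.14 and 7.05, and Gp1bb, below it, differed most (2.19). Of 7 lymphoid markers Ighm alone did (5.70 and 6.44). The part of these cells in the differences below was not tested, and fewer cells of a type cannot be told apart from less RNA per cell.

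The 52 genes were measured by 53 probe sets, and 45 of the genes were at or above the floor. The other 7 were Chmp4c, Vps4b, Vps13c, Vps18, Vps25, Vps37d and Vps52. Vps37d, with a mean of 5.65, was just outside and Vps37a, with 5.72, just inside. A probe set below the floor does not show that its gene is off.

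As a whole these genes differed little between the arrays. Of the 45, 43 (95.6%) were within 1.5-fold, against 89.6% of the 8937 genes at or above the floor. At least 1.5-fold higher at 3 h were 2 of 45 (4.44%), namely Chmp1b and Vps9d1, against 6.02% of the 8937 genes, and 0 were 1.5-fold lower, against 4.41%. Vps9d1, below the floor at 0 h, passed it only through the 3 h array, so its place in that count is set in part by its rise. Vps37a and Vps35l passed only through the 0 h array. None reached 2-fold, which 1.45% of the 8937 genes did upwards and 0.727% downwards. The share past 1.5-fold was thus near or under the background in both directions. Without the floor, 3 of 52 were 1.5-fold higher (background 5.14%) and 0 lower (background 3.50%), the added gene being Vps37d.

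Small differences leaned upwards. Of the 45 genes, 30 (66.7%) were higher at 3 h and 15 lower, against 51.2% higher among the 8937 genes. Their median difference was 0.15, beside 0.01 for those 8937. Without the floor 33 of 52 (63.5%) were higher, against a background of 50.2%, and the median was 0.11. Summed on the linear scale, the signal of the 52 genes went from 18914 to 20813.

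**Figure D1:**
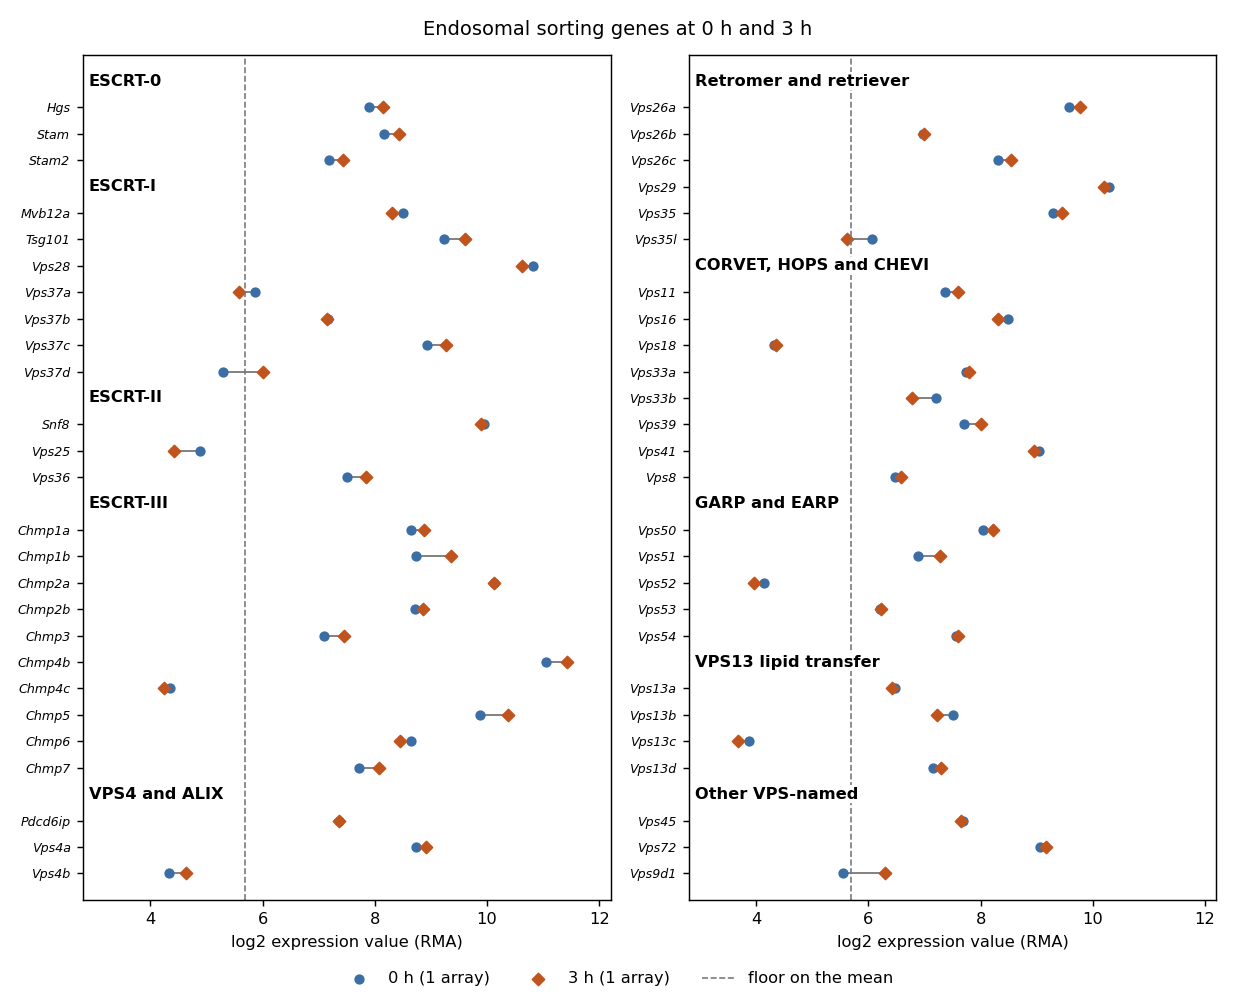
Log2 expression values (horizontal axis) of the 52 genes, grouped by complex, with a circle for the 0 h array and a diamond for the 3 h array; the dashed line is the floor of 5.69. Most pairs lie close together, and Vps9d1, Vps37d and Chmp1b have the widest gaps.

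Among the complexes, ESCRT-III had the highest median difference as processed here, with ESCRT-0 next at 0.25. That order did not hold under every alternative: with a floor at the 75th percentile of gene means ESCRT-0 came first (0.26 over 2 genes, against 0.24 for ESCRT-III). Without probe sets whose suffix marks several transcripts or genes, ESCRT-III (0.24) came after ESCRT-0 (0.25) and the 1 ESCRT-II gene left (0.33). With means, it came after the 3 other VPS-named genes (0.27 against 0.28). Of its 10 genes, 9 were at or above the floor, and 8 of these 9 were higher at 3 h, with a median of 0.36. Chmp1b, which recruits partner enzymes to ESCRT-III filaments, had the largest difference of the family. It went from 8.74 at 0 h to 9.36 at 3 h, 1.54-fold higher. This difference lay at the 94.8th percentile of the 8937 genes. Chmp5, whose protein binds the VPS4 cofactor VTA1, went from 9.88 to 10.38, 1.41-fold higher and at the 91.4th percentile.

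A further 3 members of the family lay close to one another. Chmp4b, the main filament-forming subunit, had 11.06 at 0 h and 11.42 at 3 h. Chmp3, a late subunit of the filament, had 7.09 and 7.45. Chmp7, which starts ESCRT-III assembly at the nuclear envelope, had 7.71 and 8.07. All 3 were higher at 3 h by 0.36 or 0.37, at percentiles from 85.1 to 85.6.

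The others differed less. Chmp1a, a paralog of Chmp1b, had 8.64 at 0 h and 8.88 at 3 h, a difference of 0.24. Chmp2b had 8.71 and 8.86, a difference of 0.15. Its paralog Chmp2a, a late subunit whose tail binds VPS4, had 10.13 on both arrays. Chmp6, which connects ESCRT-II to the filament, was the family's exception above the floor, with 8.64 at 0 h and 8.45 at 3 h. Chmp4c, which delays the final cut of cell division, was below the floor with a mean of 4.34 at 0 h and 4.24 at 3 h, and its 2 probe sets went in opposite directions (0.16 and -0.36).

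Promoters of ESCRT-III genes picked by their differences are shown here, beside that of Tsg101, so that the genes can be compared by sequence. Among ESCRT-III genes at or above the floor with exactly 1 window, Chmp5 and Chmp4b had the highest differences and Chmp2a the smallest in size. No window was found for Chmp1b, which had the largest difference of the family. Each line gives the 250 bases before the gene's start in RefSeq (build GRCm38.p6), read 5′ to 3′ on the gene's strand, with capitals where any of the motifs searched was found. Chmp5 lies at chr4:40948303-40948552 (plus strand), Chmp4b at chr2:154656776-154657025 (plus strand), Chmp2a at chr7:13034778-13035027 (minus strand) and Tsg101 at chr7:46919970-46920219 (minus strand).
Chmp5: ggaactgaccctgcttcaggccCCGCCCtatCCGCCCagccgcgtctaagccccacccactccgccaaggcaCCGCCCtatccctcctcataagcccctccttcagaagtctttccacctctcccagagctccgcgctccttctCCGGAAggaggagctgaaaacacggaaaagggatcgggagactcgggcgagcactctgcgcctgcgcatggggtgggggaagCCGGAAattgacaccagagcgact
Chmp4b: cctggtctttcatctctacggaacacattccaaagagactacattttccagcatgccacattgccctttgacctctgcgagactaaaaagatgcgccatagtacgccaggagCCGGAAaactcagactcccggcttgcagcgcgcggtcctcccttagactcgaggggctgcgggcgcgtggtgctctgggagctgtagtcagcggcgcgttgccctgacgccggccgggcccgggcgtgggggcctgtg
Chmp2a: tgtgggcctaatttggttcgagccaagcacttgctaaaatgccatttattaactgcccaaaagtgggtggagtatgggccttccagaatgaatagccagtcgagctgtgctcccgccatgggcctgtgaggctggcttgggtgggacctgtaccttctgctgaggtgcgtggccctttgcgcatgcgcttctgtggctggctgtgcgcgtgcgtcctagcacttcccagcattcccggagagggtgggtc
Tsg101: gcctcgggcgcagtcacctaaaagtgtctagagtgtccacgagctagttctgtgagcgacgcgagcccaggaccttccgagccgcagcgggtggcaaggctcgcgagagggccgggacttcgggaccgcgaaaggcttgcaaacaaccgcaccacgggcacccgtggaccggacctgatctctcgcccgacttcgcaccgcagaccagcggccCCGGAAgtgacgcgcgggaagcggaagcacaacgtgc
In Chmp5 the capitals mark 3 GC boxes (on the minus strand, so read here as CCGCCC) and 2 ETS cores. In Chmp4b and in Tsg101 they mark 1 ETS core each, and the Chmp2a window held none of the motifs. As the genes were picked by their differences, these windows do not show whether a motif goes with a difference. Windows not printed went both ways. Those of Chmp1a and Chmp2b, higher at 3 h, lacked the ETS core, while 1 of the 2 of Chmp3, also higher, held it. Those of Mvb12a and Vps41, lower at 3 h, held it. The windows had a GC content of 63.6% for Chmp5, 62.0% for Chmp4b, 58.0% for Chmp2a and 66.8% for Tsg101.

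Windows were found for 34 of the 52 genes, 6 of them in ESCRT-III, and as some genes have several starts they came to 40. These include windows of Vps4b, Vps18, Vps25, Vps37d and Vps52, which are below the floor. The 40 are thus not a like set to the windows of genes at or above it. The motifs were searched on both strands. The ETS core CCGGAA was in 17 of 40 windows (42.5%), against 12.0% of all 32851 windows and 22.9% of the 9414 windows of genes at or above the floor. It was in 3 of 7 ESCRT-III windows, and 3 of the other windows that hold it belong to Vps52 alone. Vps52 is below the floor, as are Vps18 and Vps25, whose windows hold it too. The GC box GGGCGG was in 20 windows (50.0%, against 32.7% and 59.7%), and the CCAAT box CCAAT in 6 (15%, against 33.9% and 35.4%). The E-box CACGTG, which the lysosomal regulator TFEB can bind, was in 5 windows (12.5%, against 6.02% and 8.46%), those of Pdcd6ip, Vps16, Vps33a and both starts of Vps26a, and in 0 of the 7 of ESCRT-III. The STAT motif TTCNNNGAA was in 3 (7.50%, against 7.02% and 5.58%), the GATA motifs AGATAA or TGATAA in 3 (7.50%, against 16.6% and 9.05%) and the CRE motif TGACGTCA in 0 (against 1.55% and 2.60%). A match describes these letters in this window, and it does not mark a bound site.

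In ESCRT-0, which binds ubiquitinated cargo at the early endosome, all 3 genes were slightly higher at 3 h, as were 51.2% of the 8937 genes by any size. Hgs, which encodes the core subunit HRS, went from 7.90 to 8.14. Stam went from 8.16 to 8.43 and its paralog Stam2 from 7.19 to 7.43. The differences of 0.24 to 0.28 were much alike in size and each lay between the 76.4th and the 79.7th percentile of the 8937 genes.

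ESCRT-I, the next complex on the path, went both ways. Tsg101, its ubiquitin-binding core subunit, was at 9.23 at 0 h and 9.60 at 3 h, a difference of 0.36. Vps28, which joins ESCRT-I to ESCRT-II, was at 10.81 and 10.62. Mvb12a, an accessory subunit, was at 8.49 and 8.31. The median of the 6 genes of this complex at or above the floor was -0.10, with 2 higher (33.3%, beside 51.2% of all genes at or above the floor) and 4 lower.

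The 4 alternative VPS37 subunits of ESCRT-I differed among themselves. Vps37c was at 8.93 at 0 h and 9.27 at 3 h, a difference of 0.34. Vps37b was at 7.17 and 7.15. Vps37a, close to the floor, was at 5.86 and 5.57. Vps37d, below the floor on its mean, was at 5.29 and 6.01, 1.65-fold higher at 3 h. The subunits with the largest differences in either direction were thus the dim ones, where RMA values are least certain.

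Among the ESCRT-II genes, Vps36, the subunit that binds both ubiquitin and lipid, was at 7.51 at 0 h and 7.84 at 3 h. Snf8 was at 9.95 and 9.90, and Vps25, below the floor, at 4.89 and 4.42. Of the ATPases that dismantle ESCRT-III, Vps4a was at 8.74 and 8.91, a difference of 0.17, and Vps4b, below the floor, at 4.32 and 4.64. Pdcd6ip, which encodes the ESCRT-III recruiter ALIX, was at 7.37 and 7.36 and thus nearly level.

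**Figure D2:**
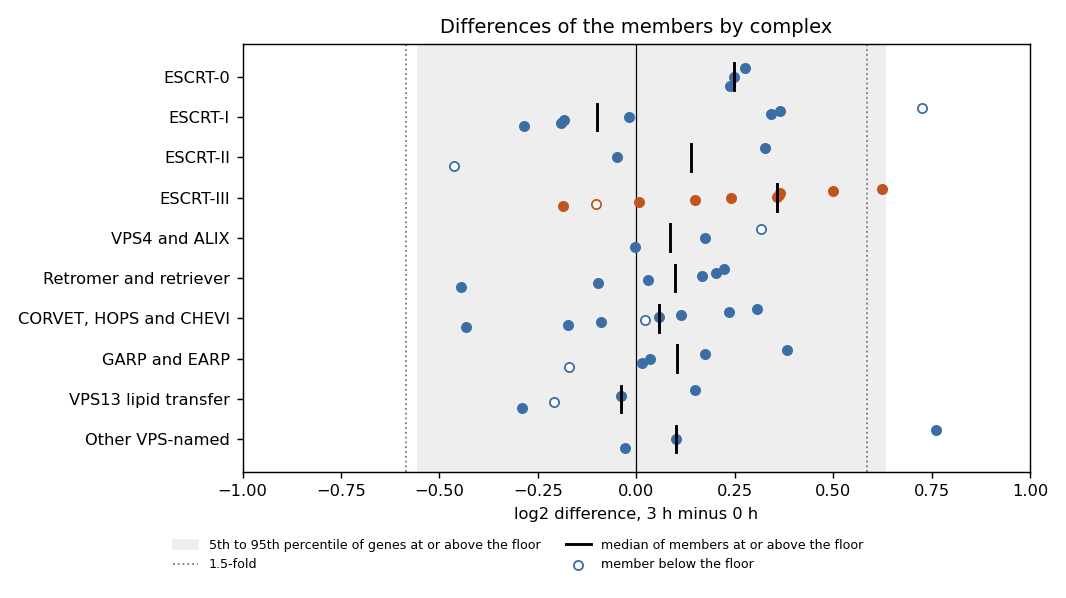
Log2 difference, 3 h minus 0 h (horizontal axis), of each gene by complex, with filled points at or above the floor, open points below it, and a bar for the median of the filled points. The grey band spans the 5th to the 95th percentile of the 8937 genes (-0.56 to 0.63), and the medians are 0.36 for ESCRT-III and 0.25 for ESCRT-0, an order that turned with a floor at the 75th percentile and without probe sets of suffix s, x or a.

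Outside ESCRT, genes of retromer and the related retriever, which return receptors from endosomes to the Golgi or the surface, went both ways. Vps35, the retromer scaffold, was at 9.29 at 0 h and 9.46 at 3 h, and Vps26a, its arrestin-like subunit, at 9.57 and 9.77. Vps29, shared by both complexes, was at 10.29 and 10.19. Vps26b was at 6.97 and 6.99, a difference whose sign turned when an intensity trend was removed. In retriever, Vps26c was at 8.32 and 8.54, a difference of 0.22, whereas Vps35l, near the floor, was at 6.06 and 5.61, a difference of -0.45. The median of these 6 genes was 0.10, with 4 higher (66.7%, beside 51.2% of all genes at or above the floor) and 2 lower.

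The tethers CORVET and HOPS join endosomes with one another and with lysosomes. Vps39, a HOPS subunit, was at 7.69 at 0 h and higher by 0.31 at 3 h, and Vps11, in the core of both tethers, at 7.37 and 7.60. Vps16, also of the core, was at 8.48 and 8.31, and Vps41, the other HOPS-specific subunit, at 9.03 and 8.94. The paralogs Vps33a (7.74 and 7.80) and Vps33b (7.20 and 6.77) differed by 0.06 and -0.43. VPS33A belongs to the core of both tethers, whereas VPS33B works in a separate complex with VIPAS39. Vps8, specific to CORVET, was at 6.47 and 6.58, and Vps18 was below the floor at 4.32 and 4.34. The median of the 7 genes at or above the floor, with Vps33b counted among them, was 0.06.

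In the Golgi and endosome tethers GARP and EARP, all 4 genes at or above the floor had higher values at 3 h. Of all genes at or above the floor 51.2% did. Vps51, shared by both tethers, was at 6.89 at 0 h and 7.27 at 3 h, a difference of 0.38. Vps50, specific to EARP, was at 8.04 and 8.21. Vps54, specific to GARP, was at 7.56 and 7.60. Vps53 was at 6.21 and 6.22, and its sign turned after quantile normalization and after removal of an intensity trend. Vps52 was below the floor at 4.13 and 3.96.

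The VPS13 genes encode large proteins that carry lipids between organelles, and Vps13a is the gene whose human counterpart is mutated in chorea-acanthocytosis, a disease with misshapen red cells. It was at 6.47 at 0 h and 6.43 at 3 h. Vps13b was at 7.50 and 7.21, Vps13d at 7.15 and 7.30, and Vps13c, below the floor, at 3.88 and 3.67. Their differences lay between -0.29 and 0.15.

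The remaining VPS-named genes do not belong to these complexes. Vps9d1, which encodes a protein with a VPS9 domain of the kind that activates RAB5 proteins, was at 5.54 at 0 h, below the floor, and at 6.30 at 3 h. It was 1.69-fold higher, the largest difference of the 45 genes. Vps45, a regulator of endosomal SNAREs, was at 7.69 and 7.66. Vps72, a subunit of chromatin remodelling complexes and no endosomal protein, was at 9.06 and 9.16.

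ESCRT-III was then set against the other genes. The median difference was 0.36 for the 9 ESCRT-III genes and 0.08 for the 36 others, a gap of 0.28. Of the 36 others 22 (61.1%) were higher and 14 lower, against 8 of 9 (88.9%) in ESCRT-III and 51.2% of all genes at or above the floor. Among the 36, the 13 of ESCRT-0, ESCRT-I, ESCRT-II, VPS4 and ALIX had a median of 0.17 and the 23 others, all VPS-named, one of 0.06. Of the 8937 genes, 14.9% had a difference at least as high as the ESCRT-III median.

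By a threshold chosen after the values were seen, 6 of the 9 ESCRT-III genes (66.7%) and 11 of the 36 others (30.6%) lay among the highest differences (0.22 or more), a range that holds 25.0% of the 8937 genes by construction. The 3 ESCRT-III genes outside it were Chmp2a, Chmp2b and Chmp6. The summed linear signal went from 6201 to 7606 over the 10 ESCRT-III genes, a ratio of 1.23, and from 12713 to 13207 over the 42 others, a ratio of 1.04. Over all 17874 genes the ratio was 0.989. A sum gives most weight to probe sets with high values. The highest of ESCRT-III, the only probe set of Chmp4b, carries the suffix s.

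The gap depended on which genes were counted. With a floor at the 75th percentile of gene means (7.94), which left 7 ESCRT-III genes without Chmp3 and Chmp7 and 16 others, the medians were 0.24 and 0.17 and the gap was 0.07. Without probe sets whose suffix marks several transcripts or genes, 5 ESCRT-III genes were left and the gap was 0.16. Genes are not replicates, so neither the gap nor its change has a test.

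**Figure D3:**
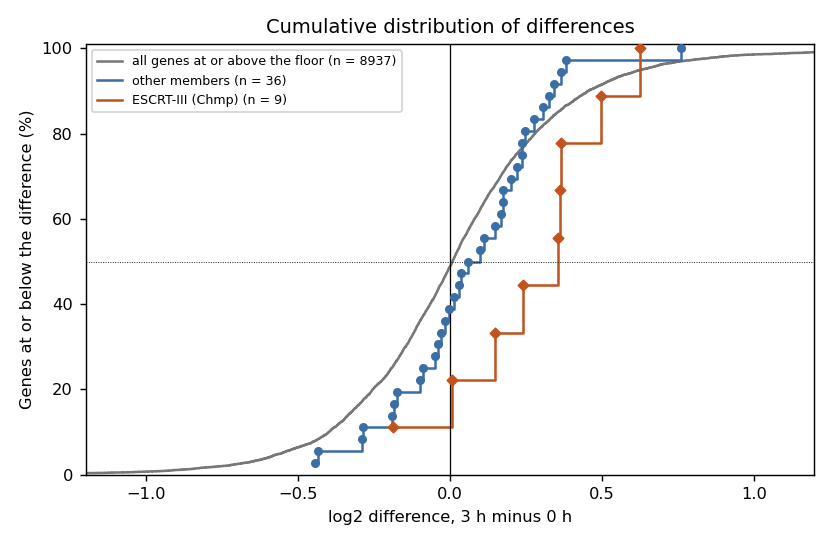
Cumulative share of genes (vertical axis, percent) at or below each log2 difference, 3 h minus 0 h (horizontal axis), for the 9 ESCRT-III genes, the 36 other genes and all 8937 genes at or above the floor. The ESCRT-III steps lie to the right of the other curves over most of the range, with a median of 0.36 beside 0.08 for the other genes.

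**Figure D4:**
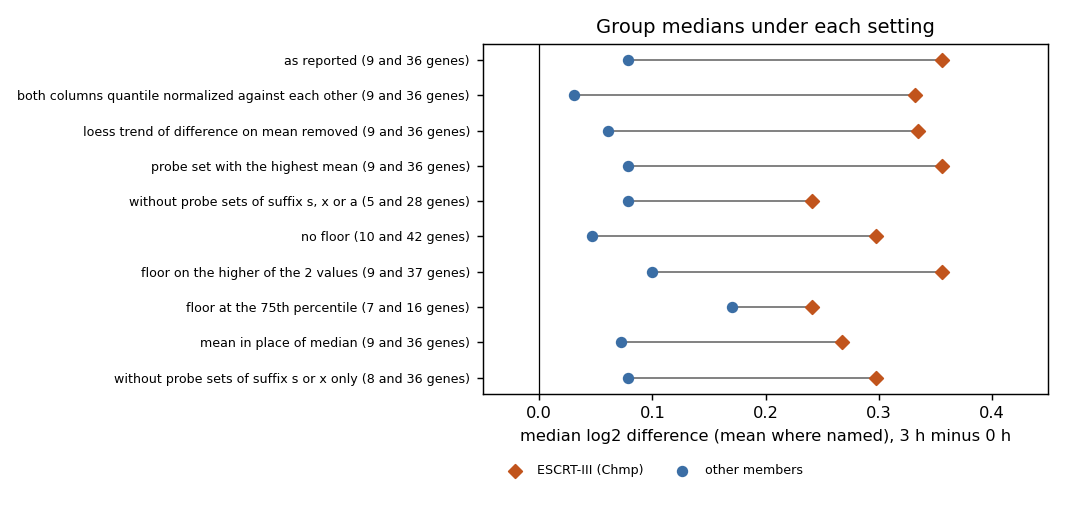
Median log2 difference, 3 h minus 0 h (horizontal axis), of ESCRT-III (diamonds) and of the other genes (circles) as reported and under each alternative, with the number of genes counted in each. The ESCRT-III median lay to the right in every setting plotted, and the gap was narrowest, at 0.07, with the floor at the 75th percentile.

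Genes outside the symbol rule that work with these complexes were examined as lists. The 19 ESCRT accessory genes at or above the floor had a median difference of 0.21. Of them 15 were higher (78.9%, beside the 51.2% of all genes at or above the floor) and 4 lower. At least 1.5-fold higher were 3 (15.8%, beside the 6.02% of all genes). One of the 3, Stambpl1, was below the floor at 0 h and passed only through the 3 h array, so that share reads as no more than a description. Mvb12b, an ESCRT-I subunit and paralog of Mvb12a, was at 7.68 at 0 h and 8.63 at 3 h, 1.93-fold higher. The paralogs thus differed in opposite directions. Stambpl1, a deubiquitinase gene near the floor, was at 5.61 and 6.24. Mitd1, whose protein binds ESCRT-III in dividing cells, was at 7.88 and 8.48.

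Other accessory genes were within 1.5-fold. Ist1, which encodes an ESCRT-III-like filament protein, was at 10.54 at 0 h and 10.86 at 3 h, and Vta1, the cofactor of VPS4, at 9.61 and 9.91. Ubap1, another ESCRT-I subunit gene, was at 8.75 and 9.20, and Ptpn23, which encodes an ALIX relative, at 7.07 and 7.55. Gga2, an adaptor at the Golgi, was the lowest of the list, at 10.79 and 10.31.

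By their medians, the other partner lists were close to level. The 26 partners of retromer and retriever had a median of 0.04, and 1 was 1.5-fold lower (3.85%, beside 4.41% of all genes), the sorting nexin gene Snx5 (7.78 at 0 h and 7.11 at 3 h). None was 1.5-fold higher, against 6.02%. Ccdc93 (-0.58) and Commd1 (-0.52), of the retriever-linked CCC complex, came next. Snx3, the sorting nexin that recycles the transferrin receptor in erythroid cells, was at 11.93 and 11.94.

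Of the 17 genes of endosomal RABs and tethering 0 differed by 1.5-fold, against 6.02% of all genes upwards and 4.41% downwards, and the median was 0.05. Rab7, the RAB of late endosomes, was at 9.63 on the 0 h array and 9.62 on the 3 h array, and Rab5a, of early endosomes, at 10.80 and 11.20. Rab4a, of recycling endosomes, differed by -0.37 and Mon1a, which helps to load RAB7, by -0.28. The 10 endosomal SNARE genes had a median of -0.04 and 0 past 1.5-fold, against the same 6.02% and 4.41%, with Stx7 (0.31), Vamp8 (0.28) and Vti1b (0.16) differing most. The 12 phosphoinositide enzyme genes had a median of 0.06, with 1 at least 1.5-fold lower (8.33%, against 4.41%) and 0 higher by that size (against 6.02%). Pik3c3, the mammalian VPS34 lipid kinase, was at 7.55 and 7.84 and its partner Pik3r4, mammalian VPS15, at 6.89 and 7.35. Mtm1, a phosphatase that dephosphorylates the lipid VPS34 makes, was at 12.02 and 11.19, 1.78-fold lower, and Nrbf2, a subunit of a VPS34 complex, differed by -0.35.

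Receptors that pass through these pathways went both ways, with a median of -0.04 over 7 genes, Epor among them. Of the 7, 1 was at least 1.5-fold higher (14.3%, against 6.02% of all genes at or above the floor). Another 1 was at least 1.5-fold lower (14.3%, against 4.41%). Tfrc, the transferrin receptor gene, was at 10.11 at 0 h and 10.72 at 3 h, 1.53-fold higher. Igf2r, which encodes a mannose 6-phosphate receptor recycled by retromer, was at 8.94 and 8.31, 1.55-fold lower. M6pr, the other such receptor gene, was at 10.38 and 9.98.

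**Figure D5:**
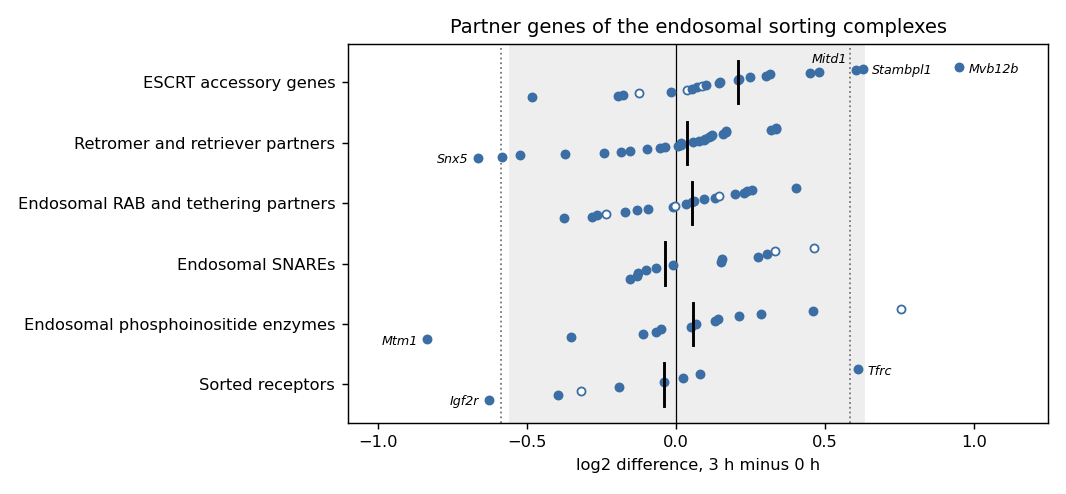
Log2 difference, 3 h minus 0 h (horizontal axis), of partner genes by list, with filled points at or above the floor, open points below it, a bar for the median of the filled points, dotted lines at 1.5-fold and a grey band from the 5th to the 95th percentile of the 8937 genes. The accessory genes of ESCRT have a median of 0.21, and named points are those past 1.5-fold.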

How the data were processed

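The data are log2 expression values of 20666 probe sets on 2 Affymetrix arrays, deposited by the authors. These are a part of the platform's probe sets, and how they were selected is not stated. The submitters' processing notes name RMA and the affy package. Versions are not stated there, nor the set of arrays that RMA was run on. RMA equalizes the distributions of arrays, so a shift of all transcripts could not be seen, and it compresses differences between dim signals.

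Groups follow the sample titles. Of the probe sets, 17918 had 1 gene in a platform annotation, and values of a gene were averaged. They covered 17874 genes, so nearly every gene had 1 probe set. Agreement between probe sets of a gene could thus seldom be looked at. All 52 genes described matched RefSeq genes by Entrez ID, with 0 symbols changed. Coordinates are given only for the promoter windows, in RefSeq's build, since the probe sets are tied to no build. Single arrays allowed no test. Members and lists were chosen with earlier results of these data known. Named were every Chmp gene, every gene past 1.5-fold and the extremes of each complex, and the others for completeness. In the partner lists these were up to 3 genes with the largest differences, and Rab7, Pik3c3, Tfrc and Kit, and in the marker lists the most abundant gene and the largest difference. Ist1, Vta1, Ubap1, Ptpn23, Gga2, Snx3, Epor, C1qa, C1qb, C1qc and the genes with each motif were named after their values were seen.

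Alternatives were quantile normalization, removal of a loess trend (span 0.3), 1 probe set per gene (that of highest mean), fewer probe sets, other floors and means. Python 3.11.15, numpy 2.4.6, pandas 2.3.3, statsmodels 0.14.6 and matplotlib 3.10.9 were used. The steps were tested on simulated arrays with planted differences and a noise level set in advance. That test concerns the code, and it does not show how certain the differences reported here are.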

Additional observations from a re-analysis of the deposited data

How the results depend on the processing

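Of 59 alternative values 52 stayed near those reported (within 0.1 on the log2 scale, or within 1.5 times for a count), 7 moved and 0 changed sign. Counts cannot change sign, so the last number concerns only the medians, means and gaps. The 0.1 allowed is wider than the reported median of the other genes (0.0788). Its values of 0.0308 after quantile normalization and 0.17 with the floor at the 75th percentile thus counted as near. The number of genes 1.5-fold lower was 0 wherever it was counted, which adds unmoved values to the 52. Taking 1 probe set per gene could hardly move a value. The 52 genes had 53 probe sets, and the only gene with 2, Chmp4c, was below the floor. With the floor at the 75th percentile the ESCRT-III median was 0.241, the gap to the other genes 0.0705, and 1 gene was at least 1.5-fold higher, 16 were higher and 7 lower by any size, among fewer genes (7 and 16). Without probe sets of suffix s, x or a the ESCRT-III median was 0.241 and the gap 0.162, over 5 and 28 genes. The suffix a marks transcripts of the same gene, and an alternative chosen after the data were seen left out only s and x, with a gap of 0.22. Quantile normalization gave a gap of 0.301, loess 0.274, and means 0.196. No paired analysis was possible because each group has 1 array. Signal near background limits the 7 genes below the floor, and Vps37a, Vps35l and Vps9d1, which reached it on 1 array only.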
